A study of Mus musculus with 36 samples.

Results

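The genes described here are the core response to type I interferon, a set of 43 mouse genes that were listed by symbol. They cover the RNA and DNA sensors, the transcription factors of the response and the antiviral effectors. Of the 43, 39 had a probe set in the annotation of the array and all 39 passed the filter on dim genes, out of 12823 genes tested and 17098 genes measured. Where a gene had several probe sets, the brightest by its mean across the arrays stood for it. Isg15, Oas1a, Ifi44 and Bst2 had no probe set named for them in the annotation and were not analysed here.

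The RNA came from the mouse stromal cells, labelled neural fraction, of human oral carcinomas grown orthotopically in immunodeficient NSG mice. NSG mice lack mature lymphocytes of their own. The tumour cells were SCC25, a squamous carcinoma line of the human tongue, or a second oral carcinoma line labelled VDH15, and carried either a short hairpin RNA against CD36 (shCD36), a fatty acid receptor of the tumour cells, or a non-targeting hairpin (PLKO, called NT). Mice ate a diet rich in palmitic acid, a diet rich in oleic acid or a control diet. SCC25 was used in 1 experiment and VDH15 in 2, called first and second here. The SCC25 and second VDH15 experiments had the same 4 groups, namely shCD36 tumours on palmitate, non-targeting tumours on palmitate, shCD36 tumours on control diet and non-targeting tumours on control diet, with 3 arrays a group. The first VDH15 experiment was made of non-targeting tumours on palmitate, oleate and control diet, with 4 arrays a group. That makes 36 arrays in 11 groups. The hairpin sits in the human cells and the arrays carry mouse probes, so the knockdown itself was not checked here. The age and sex of the mice are not given in the sources used here.

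A cell that meets foreign nucleic acid makes type I interferon through sensors such as RIG-I and MDA5 and through the transcription factors IRF3 and IRF7. Interferon then binds its receptor on the same and on neighbouring cells, and a complex that holds STAT2 and IRF9 enters the nucleus and binds the interferon-stimulated response element in front of its target genes. Most targets block a step of viral growth, and several of them, among them the sensors, STAT2, IRF7 and IRF9, are parts of the pathway itself, so the response can hold itself at a raised level.

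The arrays of a group are labelled technical replicates of 1 biological replicate. Each ± after a difference is the standard error of limma fitted to single arrays of 1 experiment, and these errors and p-values measure only the spread between arrays. A gene was called at a Benjamini-Hochberg adjusted p under 0.05 over the 12823 genes. Levels are in log2 intensity, and a level says nothing about another gene's level. The deposited values carried no difference between scan batches beyond diet and hairpin, so levels are not set side by side between experiments. Of 8 Schwann cell markers on the array 5 passed the filter on dim genes, among them Sox10, Mbp, Pmp22 and Erbb3, and S100b, Foxd3 and Mag did not. The keratinocyte genes Krt5 and Krt14 passed it as well, at percentile 99.9 of all genes by mean level. Krt10 stood at 45.2, and Krt1 at 18.7 did not pass. Pmp22 stood at 90.1, Erbb3 at 82.2, Sox10 at 53.2 and Mbp at 50.1, though levels of different genes are not comparable. The makeup of the fraction cannot be read from these levels. Whether RNA of the carcinoma cells adds to the signals was not tested. Non-targeting palmitate array 1 of the second VDH15 experiment and palmitate arrays 1 and 2 of the first stood apart from the other arrays of their groups, with correlations as low as 0.970 and 0.960 to them, and the counts and the main values that rest on them are given with and without them.

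The response element is shown first because the complex described above binds it, and part of the members carry its core near their start. RefSeq promoter sequences of build GRCm38.p6, from 250 bases before to 50 bases after the start of the gene, were at hand for 29 of the 39 members. The core of the element was searched as GAAA, any 2 bases and GAAA on either strand, which reads TTTC, any 2 bases and TTTC on the other. It was found in 13 of these 29 members (44.8%), against 3.99% of the 27025 genes with a promoter sequence. The 13 were Ifih1, Ddx58, Stat2, Ifit1, Ifit3, Oas3, Eif2ak2, Rsad2, Gbp2, Gbp3, Gbp7, Ifitm3 and Trim30a. The stretch in front of Ifit1 holds the core in 2 copies, at -104 and -85 from the start, shown in capitals in the 250 bases upstream of the gene (chr19:34640639-34640888, plus strand).
Ifit1 upstream: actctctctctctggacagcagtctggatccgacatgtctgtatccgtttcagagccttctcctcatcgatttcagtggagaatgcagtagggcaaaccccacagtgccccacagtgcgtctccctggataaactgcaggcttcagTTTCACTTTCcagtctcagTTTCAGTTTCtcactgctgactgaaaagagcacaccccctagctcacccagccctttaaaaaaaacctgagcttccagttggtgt
The other windows show the core in capitals with up to 10 bases on each side, on the strand of the gene. They are given for members with different responses in the results below, namely the sensors Ifih1 and Ddx58, Stat2, Ifit3, Rsad2, Gbp7, Oas3, Eif2ak2 and Ifitm3.
Ifih1 (chr2:62646206-62646233, minus strand): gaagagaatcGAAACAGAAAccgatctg
Ddx58 (chr4:40239804-40239833, minus strand): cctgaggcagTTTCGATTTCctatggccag
Stat2 (chr10:128270266-128270295, plus strand): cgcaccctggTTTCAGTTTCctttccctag
Ifit3 copy 1 (chr19:34583363-34583392, plus strand): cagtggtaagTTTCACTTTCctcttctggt
Ifit3 copy 2 (chr19:34583397-34583426, plus strand): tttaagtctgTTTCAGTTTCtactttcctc
Rsad2 (chr12:26456553-26456582, minus strand): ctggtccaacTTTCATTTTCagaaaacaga
Gbp7 (chr3:142530273-142530302, plus strand): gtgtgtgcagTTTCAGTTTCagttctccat
Oas3 (chr5:120777715-120777744, minus strand): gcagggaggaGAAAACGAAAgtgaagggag
Eif2ak2 (chr17:78882535-78882564, minus strand): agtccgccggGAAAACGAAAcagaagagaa
Ifitm3 copy 1 (chr7:141010723-141010752, minus strand): caaaattcagGAAAAGGAAActtctgagaa
Ifitm3 copy 2 (chr7:141010706-141010735, minus strand): aaacttctgaGAAACCGAAActgccgcaga
The positions of the first core base were +33 in Ifih1, +3 in Ddx58, -222 in Stat2, -156 and -122 in Ifit3, -120 in Rsad2, -53 in Gbp7, -75 in Oas3, +19 in Eif2ak2 and +3 and +20 in Ifitm3. A match describes the letters of the window and is not a measured binding site. Members with and without the core differed little in the SCC25 experiment, with median differences of shCD36 minus non-targeting of -0.70 and -0.68 log2 on palmitate and of -0.50 and -0.47 on control diet. The medians in the second VDH15 experiment were -1.36 with the core and -0.36 without it on palmitate, and -0.90 and -0.40 on control diet. These medians are a description, and the difference between the groups of members was not tested.

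Most interferon response genes were lower in the fraction from shCD36 tumours than in that from non-targeting tumours, on both diets and in both experiments. The difference was negative for 36 and 33 of the 39 members on palmitate and control diet in the SCC25 experiment, and for 33 and 38 in the second VDH15 experiment. In the SCC25 experiment on palmitate 31 of the 39 members fell and 1 rose, against 7.52% of all genes called lower and 6.98% called higher. On control diet 26 fell and 1 rose in that experiment, with 5.65% and 3.84% of all genes called. On palmitate 23 fell and 2 rose in the second VDH15 experiment, where 12.9% and 12.1% of all genes were called. On control diet 17 of the 39 fell there and 0 rose, where only 0.538% of all genes were called lower and 0.125% higher. The median member differed by -0.65, -0.50, -0.58 and -0.69 log2 in these comparisons, in the order given, while the median over all genes stayed between -0.02 and 0.03. In bulk RNA of this kind, fewer cells of a type and less RNA per cell cannot be told apart.

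On single arrays the groups did not overlap. The median over members, relative to the non-targeting control arrays of the experiment, was -0.67, -0.68 and -0.67 log2 on the SCC25 shCD36 palmitate arrays, against -0.11, -0.04 and -0.12 on the non-targeting palmitate arrays. It was -0.62, -0.50 and -0.53 on the SCC25 shCD36 control arrays, against 0.00, -0.04 and 0.03 on the non-targeting control arrays. The second VDH15 experiment gave -0.59, -0.56 and -0.56 on shCD36 palmitate arrays, against 0.38, -0.18 and -0.03 on non-targeting palmitate arrays. The same experiment on control diet gave -0.71, -0.72 and -0.58 with shCD36, against -0.05, 0.07 and -0.01 with the non-targeting hairpin. All 12 shCD36 arrays were thus lower than all 12 non-targeting arrays, and the array that stood apart was the highest of them. Without it, 20 members fell and 3 rose on palmitate in the second VDH15 experiment, and the median difference was -0.34 in place of -0.58. The falls there of Ifit2 (-3.21), Oasl1 (-2.02), Trim30a (-1.76), Rsad2 (-1.58), Ifih1 (-1.25) and Ifit1 (-1.21) were still called without that array, and so were those of Stat2 (-0.54), Ddx58 (-0.49), Rtp4 (-0.48) and Usp18 (-0.48).

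**Figure D1:**
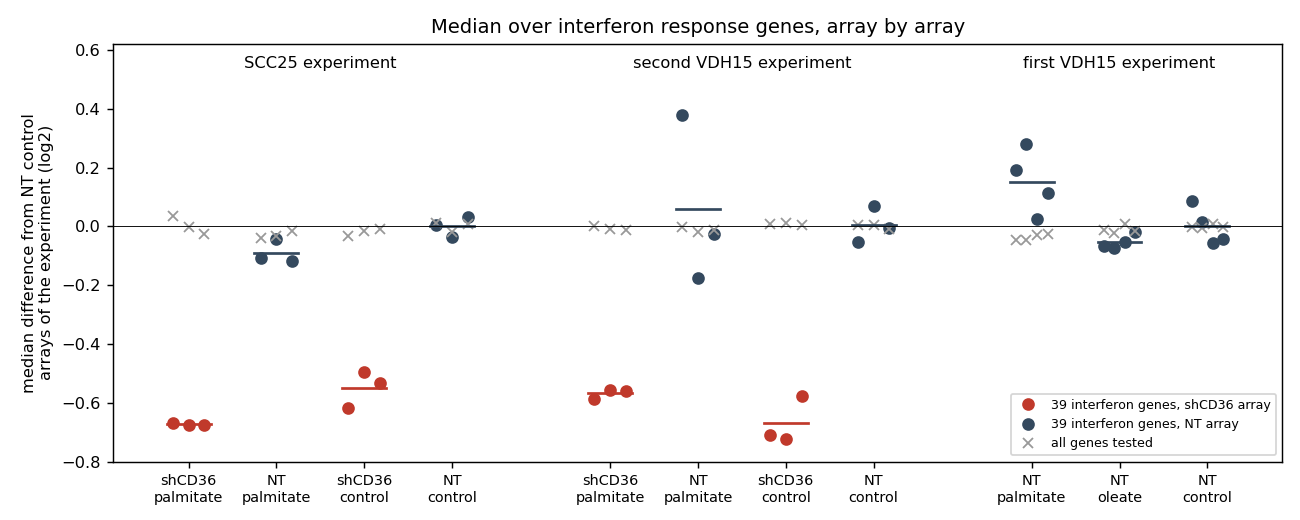
Median over the 39 interferon response genes on each array, as the log2 difference from the mean of the non-targeting (NT) control-diet arrays of the same experiment. Red points are shCD36 arrays, dark points non-targeting arrays, lines the mean of the points of a group and grey crosses the median over all 12823 genes. The shCD36 arrays lie between -0.72 and -0.50, and the non-targeting arrays between -0.18 and 0.38.

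The calls recurred across experiments. On palmitate 19 of 39 members were called lower in both experiments, against 3.95% of all genes, and on control diet 12 of 39, against 0.211%. Only 11 of the 12823 genes (0.0858%) were called lower in all 4 comparisons, and 9 of these 11 are members: Ifih1, Stat2, Herc6, Ifit1, Gbp3, Gbp7, Parp14, Samd9l and Rtp4. These 9 and others, 28 of the 39 in all, had a negative difference in all 4 comparisons, which 5.84% of all genes had. On control diet in the second VDH15 experiment 12 members were called in place of 17 when any 1 array was left out. Rtp4 lost its call there each time. In at least 1 of the 4 comparisons 35 members were called lower, with 21.2% of all genes. Mx1, Eif2ak2, Irf1 and Ifi27 were called lower in none. Of 39 members, 33 had all shCD36 arrays below all non-targeting arrays on palmitate in the SCC25 experiment (12.5% of all genes), 30 on control diet there (18%), 22 on palmitate in the second VDH15 experiment (19%) and 32 on control diet there (9.94%). All shCD36 arrays lay above for 1, 2, 2 and 0 members in these comparisons, at 16.3%, 13.1%, 20.5% and 10.2% of all genes. An exact permutation test of 3 against 3 arrays cannot go below p = 0.10.

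Fitted to the 8 group averages with the experiment as a term, where the experiments are the n = 2 biological replicates, fewer members passed. The ± of this fit is its standard error over averages. On palmitate 4 of the 39 fell and 0 rose, at 0.281% and 0.616% of all genes called. These were Ifit1 (-1.23 ± 0.11 log2, adjusted p = 0.0238), Parp14 (-1.05 ± 0.09, 0.0238), Samd9l (-0.85 ± 0.08, 0.0238) and Ddx58 (-0.70 ± 0.08, 0.0305). The difference was negative for 37 of 39 members, and 27 had an unadjusted p under 0.05. Without the array that stood apart 0 members were called in this fit, and Ifit1 was at -1.15 with adjusted p = 0.0669. With either experiment left out 0 were called on palmitate as well. On control diet limma called 0 members and 0% of all genes. There 24 members had an unadjusted p under 0.05, the smallest adjusted p was 0.107 for Ifit1 (-1.44 ± 0.11 log2), and 38 of 39 differences were negative.

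**Figure D2:**
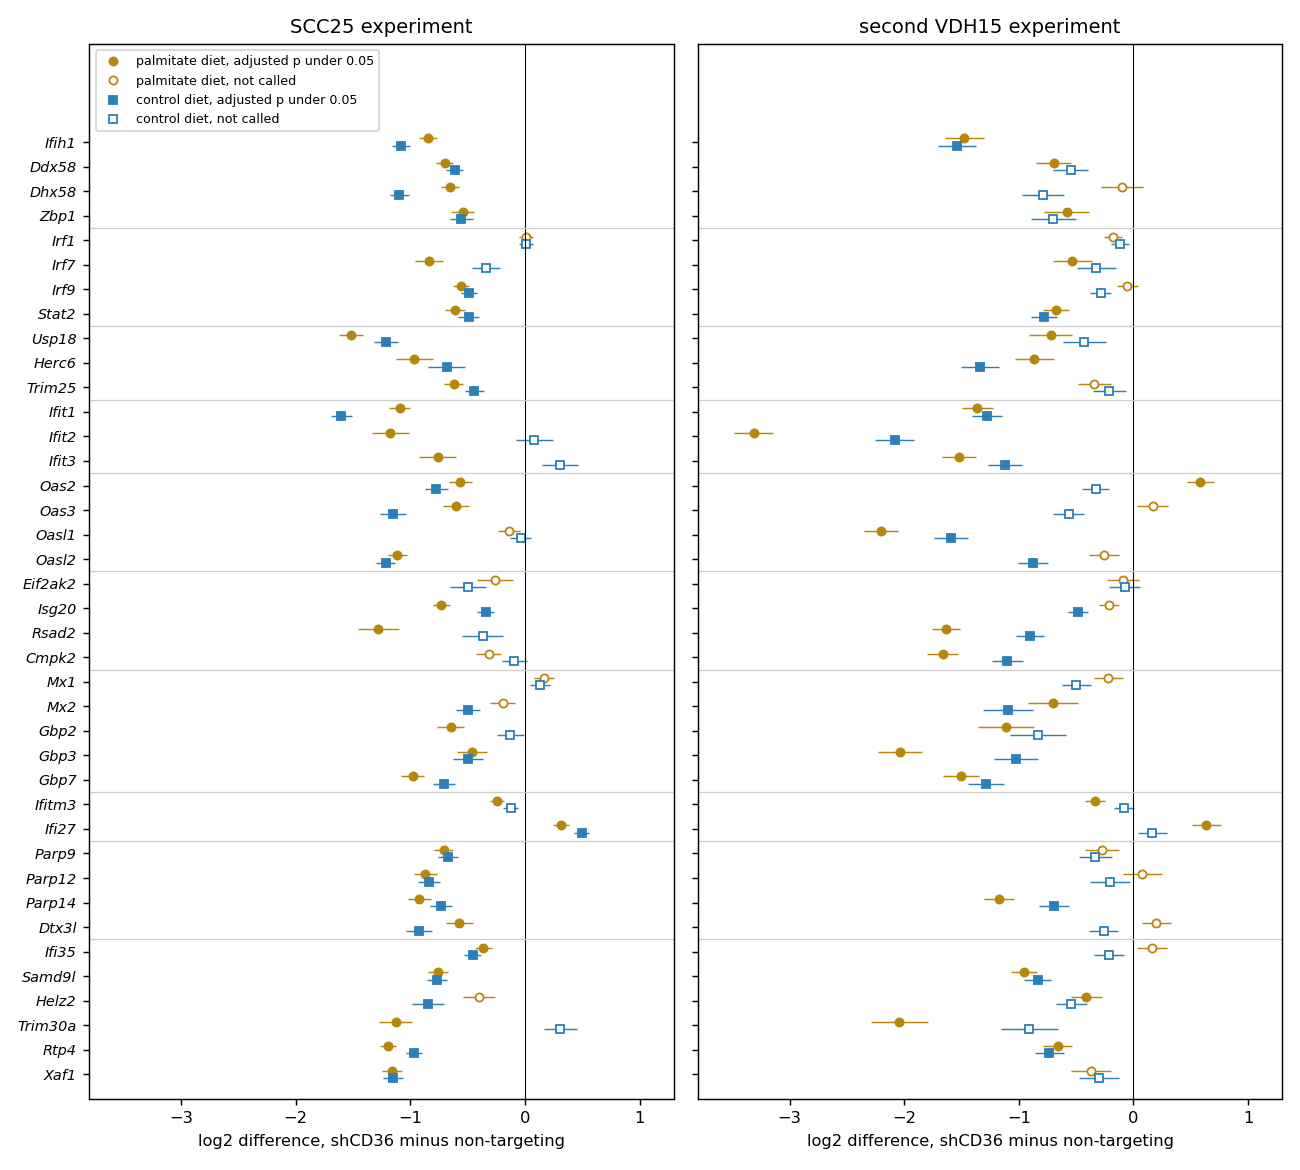
Difference between shCD36 and non-targeting tumours for each of the 39 members (log2, x axis), in the SCC25 experiment (left) and the second VDH15 experiment (right). Gold circles are the palmitate diet, blue squares the control diet, filled where the adjusted p was under 0.05, and bars are the standard error over 3 arrays a group. Grey lines separate the roles. Most points lie left of 0, Ifit2 reaches -3.31 in the second VDH15 experiment, and Ifi27 lies right of 0 throughout.

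Of the sensors, Ifih1 fell in all 4 comparisons. Ifih1 encodes MDA5, which binds long double-stranded RNA. It read 8.86, 8.80 and 8.88 on shCD36 palmitate arrays of the SCC25 experiment, against 9.71, 9.76 and 9.62 in NT tumours (-0.85 ± 0.08, 1.8-fold lower, adjusted p = 3.59e-06 by limma). Control diet gave 8.88, 8.96 and 8.68 in shCD36 and 9.94, 9.96 and 9.86 in NT tumours (-1.08 ± 0.08). The second VDH15 experiment gave 8.62, 8.81 and 8.78 in shCD36 on palmitate, against 10.66, 9.91 and 10.06 in NT tumours (-1.47 ± 0.17). On control diet there it read 8.23, 8.63 and 8.37 in shCD36, against 9.86, 10.04 and 9.96 in NT tumours (-1.54 ± 0.17, 2.91-fold lower). The arrays of both hairpins stayed apart in each of these comparisons. Ddx58, which encodes RIG-I, the sensor of RNA ends, read 9.15, 9.28 and 9.12 in shCD36 against 9.82, 9.91 and 9.93 in NT tumours on palmitate in the SCC25 experiment (-0.70 ± 0.08) and 9.28, 9.32 and 9.14 in shCD36 against 10.35, 9.56 and 9.92 in NT tumours in the second VDH15 experiment (-0.70 ± 0.15). Ddx58 on control diet fell in the SCC25 experiment (-0.61 ± 0.08) and had -0.55 ± 0.15 in the second VDH15 experiment, adjusted p = 0.191. Dhx58, the related helicase LGP2, fell on both diets in the SCC25 experiment (-0.65 ± 0.08 on palmitate and -1.10 ± 0.08 on control). Its values in the second VDH15 experiment, -0.10 ± 0.18 and -0.79 ± 0.18, did not pass. Zbp1, which binds left-handed nucleic acid, fell in 3 of 4 comparisons, by 0.54 to 0.58 log2. Its larger difference on control diet in the second VDH15 experiment (-0.70) did not pass.

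Of the transcription factors, Stat2 fell in all 4 comparisons, Irf7 and Irf9 in 2 each and Irf1 in none. Stat2 read 9.63, 9.35 and 9.59 in shCD36 and 10.04, 10.11 and 10.24 in NT tumours on palmitate in the SCC25 experiment (-0.61 ± 0.09). On palmitate in the second VDH15 experiment it read 9.74, 9.60 and 9.59 in shCD36 and 10.59, 10.11 and 10.26 in NT tumours (-0.68 ± 0.11). On control diet the differences of Stat2 were -0.49 ± 0.09 and -0.78 ± 0.11. The 2 hairpins did not overlap on any diet. Irf7, which amplifies interferon production, read 8.63, 8.26 and 8.03 in shCD36 against 9.09, 9.21 and 9.14 in NT tumours on palmitate in the SCC25 experiment (-0.84 ± 0.12, 1.79-fold lower). Irf7 in the second VDH15 experiment read 8.45, 8.51 and 8.83 in shCD36 against 9.54, 8.83 and 9.02 in NT tumours (-0.53 ± 0.17), with 1 array of each group at 8.83, and the call was lost without non-targeting array 1 (-0.33, adjusted p = 0.124), shCD36 array 1 (-0.46, 0.124) or shCD36 array 2 (-0.49, 0.111). On control diet Irf7 did not pass (-0.34 ± 0.12 and -0.32 ± 0.17). Irf9, the DNA-binding partner of STAT2, read 9.24, 9.23 and 9.21 in shCD36 against 9.70, 9.78 and 9.86 in NT tumours on palmitate in the SCC25 experiment (-0.56 ± 0.07) and fell on control diet too (-0.49 ± 0.07). Irf9 in the second VDH15 experiment read 9.54, 9.49 and 9.63 in shCD36 against 9.74, 9.56 and 9.52 in NT tumours, which overlap (-0.05 ± 0.09, adjusted p = 0.727). Irf1, which interferon gamma induces strongly, lay between 10.74 and 11.13 log2 on the 24 arrays of both experiments, and its 4 differences ran between -0.18 ± 0.08 and 0.01 ± 0.06.

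The ISG15 system attaches a ubiquitin-like protein to other proteins. Usp18, the protease that removes ISG15 and that also dampens the interferon receptor, read 6.85, 6.83 and 6.52 on SCC25 shCD36 palmitate arrays, against 8.27, 8.18 and 8.31 on non-targeting palmitate arrays. That is -1.52 ± 0.11 log2, 2.86-fold lower and the largest fall of a member in that comparison (adjusted p = 2.6e-07). Control diet gave 7.10, 7.38 and 7.32 in shCD36 against 8.50, 8.32 and 8.62 in NT tumours (-1.21 ± 0.11). Usp18 in the second VDH15 experiment read 7.21, 7.30 and 7.60 in shCD36 against 8.58, 7.73 and 7.96 in NT tumours on palmitate (-0.72 ± 0.19). The fall passed there on palmitate and not on control diet (-0.43 ± 0.19). Without shCD36 array 1 or 2 the palmitate difference was -0.64 (adjusted p = 0.0598) or -0.69 (0.0506). Herc6, the mouse ligase for ISG15, fell in all 4 comparisons, by 0.68 to 1.34 log2. Trim25, a ubiquitin ligase that acts on RIG-I, fell on both diets in the SCC25 experiment (-0.62 ± 0.08 and -0.44 ± 0.08).

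The IFIT proteins bind foreign RNA and block its translation, and the 3 genes did not behave alike. Ifit1 read 10.36, 10.04 and 10.36 in shCD36 and 11.44, 11.31 and 11.30 in NT tumours on palmitate in the SCC25 experiment (-1.09 ± 0.09). On control diet it read 10.03, 10.18 and 9.93 in shCD36 and 11.63, 11.59 and 11.72 in NT tumours (-1.60 ± 0.09, 3.03-fold lower). In the second VDH15 experiment it read 10.002, 10.15 and 10.33 in shCD36 against 11.83, 11.28 and 11.46 in NT tumours on palmitate (-1.36 ± 0.13) and 10.29, 10.13 and 10.08 in shCD36 against 11.32, 11.54 and 11.47 in NT tumours on control diet (-1.28 ± 0.13). No shCD36 array reached a non-targeting one. Ifit2 read 6.71, 6.41 and 7.01 in shCD36 on palmitate in the second VDH15 experiment, against 10.23, 9.68 and 10.16 in NT tumours (-3.31 ± 0.17, 9.94-fold lower). On control diet there it read 7.88, 7.92 and 7.59 in shCD36 against 9.72, 9.89 and 10.03 in NT tumours (-2.08 ± 0.17). Ifit2 thus had the largest fall of a member on either diet of that experiment. Ifit2 in the SCC25 experiment read 8.75, 8.26 and 8.60 in shCD36 against 9.45, 9.82 and 9.85 in NT tumours on palmitate (-1.17 ± 0.16). On control diet it read 8.16, 7.92 and 8.30 in shCD36 against 8.12, 8.31 and 7.70 in NT tumours, which overlap (0.08 ± 0.16, adjusted p = 0.813). Ifit3 fell on palmitate (-1.52 ± 0.15) and control diet (-1.12 ± 0.15) in the second VDH15 experiment and on palmitate in the SCC25 experiment (-0.76 ± 0.16), and its 0.31 ± 0.16 on control diet there did not pass.

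**Figure D3:**
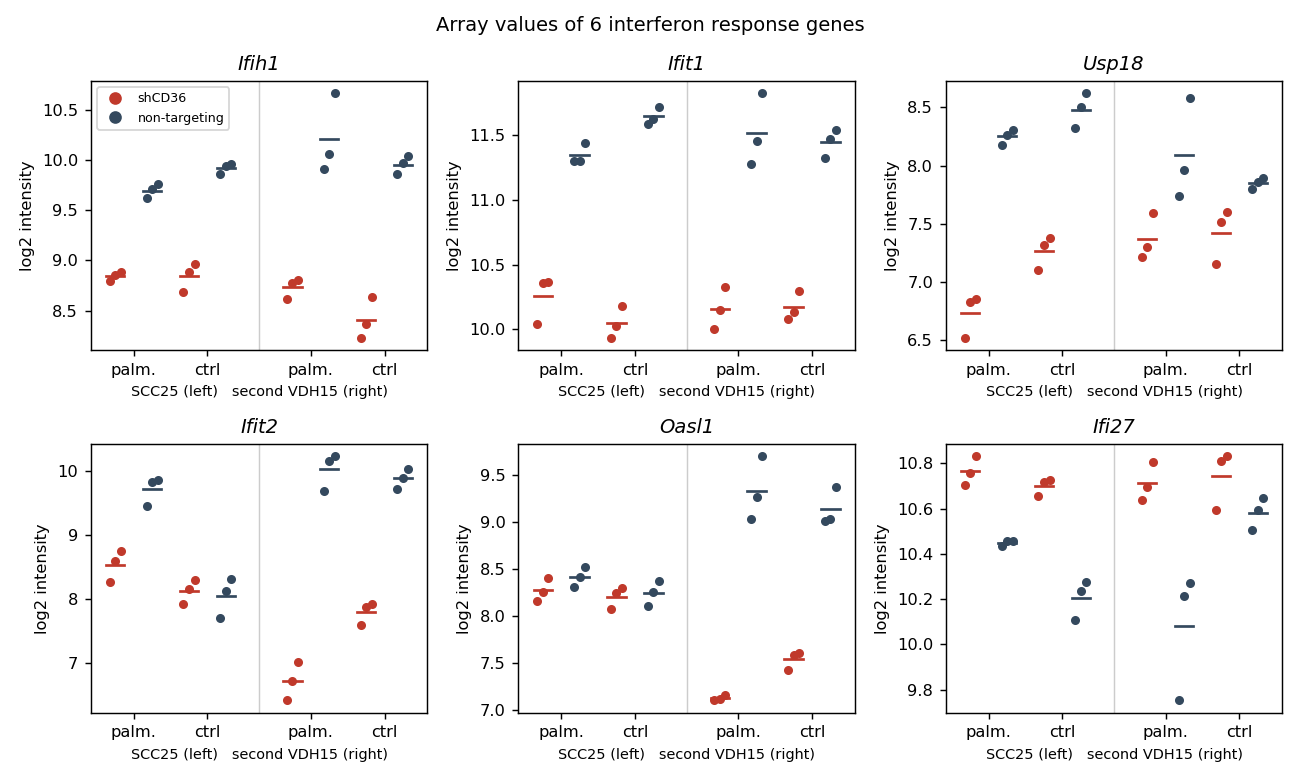
Array values (log2 intensity, y axis) of 6 members in the SCC25 experiment (left of the grey line) and the second VDH15 experiment (right of it), on palmitate and control diet. Red points are shCD36 arrays, dark points non-targeting arrays and lines the group means. Ifih1 and Ifit1 are lower with shCD36 in all 4 pairs of groups, Oasl1 is lower with shCD36 in the second VDH15 experiment, and Ifi27 is higher with shCD36 in all 4 pairs by its means.

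In the oligoadenylate synthetase family, the active enzymes make the messenger that activates RNase L. Oasl2 read 8.94, 9.17 and 8.98 in shCD36 against 10.21, 10.15 and 10.07 in NT tumours on palmitate (-1.11 ± 0.08) and 9.51, 9.45 and 9.61 in shCD36 against 10.76, 10.62 and 10.82 in NT tumours on control diet (-1.22 ± 0.08) in the SCC25 experiment. The second VDH15 experiment gave 9.58, 9.73 and 9.82 in shCD36 against 10.32, 9.71 and 9.87 in NT tumours on palmitate, which overlap (-0.26 ± 0.13), and Oasl2 fell on control diet (-0.88 ± 0.13). Oasl1, which in mice restrains the translation of Irf7, had the reverse pattern. It read 7.10, 7.12 and 7.17 in shCD36 and 9.70, 9.03 and 9.26 in NT tumours on palmitate in the second VDH15 experiment (-2.20 ± 0.15, 4.6-fold lower). In the SCC25 experiment it read 8.25, 8.41 and 8.16 in shCD36 against 8.31, 8.52 and 8.41 in NT tumours (-0.14 ± 0.09, adjusted p = 0.378), and on control diet -1.59 ± 0.15 in the second VDH15 and -0.04 ± 0.09 in the SCC25 experiment. Oasl1 and Oasl2 thus separated the experiments in opposite directions on palmitate. Oas2 fell on both diets in the SCC25 experiment (-0.56 ± 0.10 and -0.77 ± 0.10) and rose on palmitate in the second VDH15 experiment, with 7.98, 7.92 and 8.19 in shCD36 against 7.52, 7.28 and 7.54 in NT tumours (0.58 ± 0.12). Oas3 fell on both diets in the SCC25 experiment only among these comparisons (-0.60 ± 0.11 and -1.15 ± 0.11), with 0.17 ± 0.13 and -0.56 ± 0.13 in the second VDH15 experiment.

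Among the enzymes that act on RNA and nucleotides, Rsad2 encodes viperin, which makes a chain-terminating nucleotide. It read 11.80, 10.77 and 11.10 in shCD36 and 12.46, 12.52 and 12.54 in NT tumours on palmitate in the SCC25 experiment (-1.28 ± 0.18). It read 10.50, 10.37 and 10.92 in shCD36 and 12.35, 12.14 and 12.21 in NT tumours in the second VDH15 experiment (-1.64 ± 0.12, 3.11-fold lower). On control diet the differences were -0.37 ± 0.18, which did not pass, and -0.90 ± 0.12, which did. Cmpk2, the neighbour of Rsad2 in the genome and a nucleotide kinase, fell in the second VDH15 experiment on both diets (-1.66 ± 0.14 and -1.10 ± 0.14) and had -0.32 ± 0.11 and -0.09 ± 0.11 in the SCC25 experiment, neither called. Isg20, an exonuclease, fell in 3 of 4 comparisons, by at most 0.73 log2. Eif2ak2, the kinase PKR that stops translation, was called in none, with differences between -0.50 ± 0.16 and -0.08 ± 0.14.

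Of the GTPases, the guanylate-binding proteins attack the vacuoles of intracellular microbes, and each of the 3 measured fell in at least 2 comparisons. Gbp7 fell in all 4 comparisons, with -0.98 ± 0.10 and -0.70 ± 0.10 in the SCC25 and -1.51 ± 0.16 and -1.28 ± 0.16 in the second VDH15 experiment, on palmitate and control diet. Gbp3 fell in all 4, most on palmitate in the second VDH15 experiment (-2.03 ± 0.19). Gbp2 fell on palmitate in both experiments (-0.65 ± 0.12 and -1.11 ± 0.24) and did not pass on control diet. The probe set of Gbp2 can bind related transcripts by its design suffix, so its share of signal among the guanylate-binding genes is uncertain. Mx2, a myxovirus resistance protein, fell in 3 comparisons, and Mx1 in none (0.16 ± 0.09 to -0.50 ± 0.13), at a level near the dim end of the members.

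The 2 membrane proteins differed in direction. Ifitm3, which blocks virus entry at the endosome, fell on palmitate in both experiments by little (-0.24 ± 0.06 and -0.34 ± 0.09). Ifi27, a small membrane protein of mitochondria and the nuclear envelope, rose with shCD36 in 3 of 4 comparisons. Its probe set can also bind related transcripts by its suffix. It read 10.76, 10.83 and 10.70 in shCD36 against 10.43, 10.46 and 10.46 in NT tumours on palmitate (0.31 ± 0.07) and 10.73, 10.72 and 10.66 in shCD36 against 10.24, 10.11 and 10.28 in NT tumours on control diet (0.49 ± 0.07) in the SCC25 experiment. In the second VDH15 experiment it read 10.81, 10.64 and 10.70 in shCD36 against 9.75, 10.27 and 10.21 in NT tumours on palmitate (0.63 ± 0.13), and on control diet the difference was 0.16 ± 0.13 and did not pass. No shCD36 array was as low as a non-targeting one in the 3 comparisons that passed. The other probe set of Ifi27 gave 0.22 and 0.39 in the SCC25 experiment on palmitate and control diet. In the second VDH15 experiment that probe set gave 0.19 on palmitate and -0.03 on control diet, so the direction there depends on the probe set on control diet.

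The ADP-ribosylating proteins Parp9 and Parp12, and Dtx3l, the ligase that pairs with Parp9, fell on both diets in the SCC25 experiment, by 0.57 to 0.92 log2, and in neither comparison of the second VDH15 experiment. Parp14 fell in all 4, by 0.69 to 1.17 log2. Of the remaining members, Rtp4, a Golgi chaperone that restrains the interferon response in mice, read 10.03, 9.90 and 10.03 in shCD36 against 11.16, 11.23 and 11.15 in NT tumours on palmitate in the SCC25 experiment (-1.19 ± 0.07, adjusted p = 5.44e-08, the smallest of the set). Rtp4 in the second VDH15 experiment read 10.41, 10.38 and 10.49 in shCD36 against 11.45, 10.83 and 11.003 in NT tumours (-0.66 ± 0.13), and on control diet the differences were -0.97 ± 0.07 and -0.73 ± 0.13. Both hairpins stayed apart throughout, and the control-diet call in the second VDH15 experiment was lost when any 1 of its 6 arrays was left out (-0.77 to -0.68, adjusted p = 0.062 to 0.125). Samd9l, an antiviral brake on translation, fell in all 4 comparisons by 0.76 to 0.95 log2. Trim30a, a mouse ligase that limits Toll-like receptor signals, read 6.998, 6.72 and 6.33 in shCD36 against 7.79, 8.07 and 7.57 in NT tumours on palmitate in the SCC25 experiment (-1.13 ± 0.14). It read 5.86, 6.11 and 6.26 in shCD36 against 8.68, 7.42 and 8.26 in NT tumours in the second VDH15 experiment (-2.04 ± 0.25, 4.12-fold lower). On control diet it did not pass in either (0.31 ± 0.14 and -0.91 ± 0.25). Xaf1, a pro-apoptotic factor, fell in the SCC25 experiment (-1.16 ± 0.09 and -1.15 ± 0.09) and did not pass in the second VDH15 experiment. Ifi35 fell in the SCC25 experiment and Helz2, a coactivator helicase, in 2 of 4 comparisons.

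The shCD36 effect itself differed between the experiments for part of the set. A test of the difference over the 24 arrays, added after the values were seen, called 17 members on palmitate. The shCD36 difference was more negative in the second VDH15 experiment for 6 of them and more negative in the SCC25 experiment for 11, at 6.07% and 4.27% of all genes. On control diet these counts were 6 and 2, at 1.76% and 2%. Called in the same direction on both diets were Ifit2 (-2.14 log2 on palmitate and -2.16 on control diet, second VDH15 minus SCC25), Oasl1 (-2.06 and -1.55), Cmpk2 (-1.35 and -1.01) and Ifit3 (-0.76 and -1.43), all more negative in the second VDH15 experiment. Xaf1 (0.79 and 0.85) and Dtx3l (0.77 and 0.66) were more negative in the SCC25 experiment. Without the array that stood apart 17 members were called on palmitate, 4 more negative in the second VDH15 and 13 in the SCC25 experiment, 15 of them called with it too. On control diet, where that array enters through the spread alone, 15 were called in place of 8, and all 8 were among them. The palmitate calls of Ifit3 (-0.61) and Ifih1 (-0.40) were lost without it. Cell line, scan batch and experiment cannot be told apart in this comparison.

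**Figure D4:**
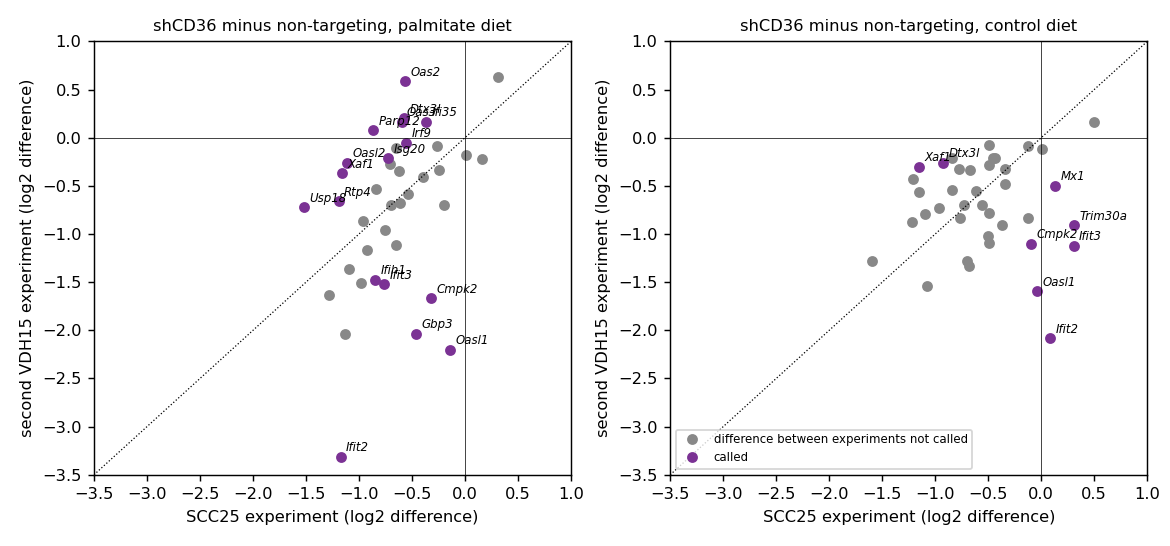
Difference between shCD36 and non-targeting tumours for the 39 members in the SCC25 experiment (x axis, log2) and the second VDH15 experiment (y axis, log2), on palmitate (left) and control diet (right). Purple points carry a name and differed between the experiments at an adjusted p under 0.05 over arrays, grey points did not, and the dotted line marks equal differences. Ifit2, Oasl1 and Cmpk2 lie far below the line on both diets.

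Genes above the response in the pathway were read from a list written for this purpose. Of 30 such genes on the array 24 passed the filter and were tested. With shCD36 4 fell and 1 rose on palmitate in the SCC25 experiment, where 7.52% and 6.98% of all genes were called, and 4 fell and 0 rose on control diet (5.65% and 3.84%). In the second VDH15 experiment 8 fell and 3 rose on palmitate (12.9% and 12.1%) and 2 fell and 0 rose on control diet (0.538% and 0.125%). The shares that rose are near or under those of all genes. Their median stayed between -0.08 and -0.02 log2. Ifnb1, interferon beta itself, read 4.54, 4.07 and 4.67 in shCD36 on palmitate in the second VDH15 experiment, against 6.33, 5.82 and 5.68 in NT tumours (-1.51 ± 0.20). Control diet gave 4.40, 4.59 and 4.30 in shCD36 against 6.92, 7.30 and 6.68 in NT tumours (-2.54 ± 0.20). All shCD36 arrays were lower, and their values lay under 5.19 log2, the filter that marks the dimmest 25% of genes. Ifnb1 in the SCC25 experiment read 5.44, 5.42 and 5.25 in shCD36 against 5.54, 5.26 and 5.47 in NT tumours on palmitate (-0.06 ± 0.10) and 5.50, 5.57 and 5.19 in shCD36 against 5.54, 5.65 and 5.49 in NT tumours on control diet (-0.14 ± 0.10), and neither passed. All SCC25 values of Ifnb1 lay between 5.19 and 5.65 log2, close to that filter. The filter is a cut on gene means and not a detection floor. Ifnb1 read lower on the second VDH15 shCD36 arrays, but levels are not set side by side between experiments. Whether a fall could have been read in the SCC25 experiment was not tested. The sizes of the falls in the second VDH15 experiment are uncertain. Ifnb1 also fell in non-targeting tumours of the first VDH15 experiment, on palmitate (-1.48 ± 0.14) and on oleate (-1.15 ± 0.14) over control diet. The palmitate value rests in part on the arrays that stood apart. On group averages of all experiments its palmitate difference in non-targeting tumours was -0.88 ± 0.48 and was not called. The receptor subunit Ifnar2 fell on palmitate in the second VDH15 experiment (-0.85 ± 0.12) and had -0.11 ± 0.08 in the SCC25 experiment. Tlr3, the endosomal sensor of double-stranded RNA, fell on palmitate in both (-0.44 ± 0.10 and -0.63 ± 0.15). Irf3 was called in none of the 4 comparisons of shCD36 with non-targeting tumours, with differences between -0.12 ± 0.09 and 0.01 ± 0.09. It fell on palmitate in non-targeting tumours of the first VDH15 experiment (-0.35 ± 0.11).

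Of the 4 interferon-induced chemokines in the lists, Ccl5, Cxcl10 and Cxcl11 fell on both diets in the second VDH15 experiment, and Cxcl9 did not pass there (-0.89 ± 0.32 on palmitate, adjusted p = 0.065, and 0.00 ± 0.32 on control diet). Ccl5, which attracts T cells and macrophages, read 8.09, 8.35 and 8.79 in shCD36 and 11.14, 10.49 and 10.85 in NT tumours on palmitate in the second VDH15 experiment (-2.41 ± 0.20), and fell on control diet (-2.54 ± 0.20). Cxcl11 (-2.53 ± 0.43 and -2.80 ± 0.43) and Cxcl10 (-0.94 ± 0.12 and -1.13 ± 0.12), ligands of CXCR3, fell in that experiment on both diets as well. Ccl5, Cxcl10 and Cxcl11 were called in neither comparison of the SCC25 experiment, where Cxcl10 had 0.22 ± 0.07 and 0.01 ± 0.07, and the difference between experiments was called for these 3 on both diets. Cxcl9 fell on palmitate in the SCC25 experiment (-0.78 ± 0.19). Of the 20 tested genes typical of interferon gamma, 8 and 5 fell (0 and 1 rose) in the SCC25 experiment on palmitate and control diet, where 7.52% and 5.65% of all genes fell. The second VDH15 experiment had 7 and 2 that fell (0 rose), where 12.9% and 0.538% of all genes fell, among them Irgm1, an immunity-related GTPase, in 3 comparisons (-1.23 ± 0.14, -1.16 ± 0.14 and -0.85 ± 0.25). The class I antigens H2-K1 and H2-D1 were called in none, with differences from -0.23 ± 0.08 to -0.06 ± 0.06. Of 28 further interferon-induced genes tested, 14 and 13 fell in the SCC25 experiment on palmitate and control diet (0 and 2 rose) and 12 and 3 in the second VDH15 experiment (1 and 0 rose), beside the same shares of all genes, including Rnf213, a large ubiquitin ligase (-0.78 ± 0.08 and -1.15 ± 0.14 on palmitate).

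The difference of the shCD36 effect, palmitate minus control diet, was called for 9 of the 39 members in the SCC25 experiment. Of these 6 were negative and 3 positive, where 6.98% and 8.55% of all genes were called. The second VDH15 experiment had 5 calls, 3 negative and 2 positive, at 5.78% and 3.77%. Both of these counts and the 3 positive calls in the SCC25 experiment are near the shares of all genes, so nothing is read from them. The share of all genes called in both experiments was not counted. Called in both experiments were Ifit2 (-1.26 ± 0.23 and -1.23 ± 0.24) and Rsad2 (-0.91 ± 0.25 and -0.73 ± 0.17), whose difference was more negative on palmitate, and Oas3 (0.55 ± 0.16 and 0.73 ± 0.19), whose difference was more negative on control diet. Without the array that stood apart these were -1.13, -0.68 and 0.87 in the second VDH15 experiment, all called. The SCC25 count was 5 without shCD36 control array 3. The second VDH15 count was 10 without non-targeting palmitate array 1 (3 negative and 7 positive), 2 without non-targeting control array 1, and 3 without any 1 of the shCD36 palmitate arrays or shCD36 control arrays 1 and 2. On group averages limma called 0 members, at 0.0234% of all genes called negative and 0.0078% called positive, with 2 at an unadjusted p under 0.05.

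Between diets in non-targeting tumours the median member stayed near 0. Over 3 experiments, fitted on group averages (n = 3), palmitate over control diet called 2 members higher and 0 lower, at 3.65% and 3.27% of all genes, so the count is near that of all genes and nothing is read from it. The 2 were Trim30a (1.61 ± 0.32 log2, adjusted p = 0.0372) and Parp14 (0.34 ± 0.07, 0.0432). The median member was at -0.01, and no member was called when any 1 of the experiments was left out. Without the arrays that stood apart Trim30a was at 1.40 (adjusted p = 0.0437) and Parp14 at 0.25 (0.0536). Trim30a read 8.60, 9.08, 7.95 and 8.34 on palmitate arrays of the first VDH15 experiment, against 6.75, 5.93, 5.90 and 6.15 on control arrays (2.31 ± 0.23, and 1.97 ± 0.22 without the arrays that stood apart). It rose on palmitate in the SCC25 experiment (1.48 ± 0.14) and in the second VDH15 experiment (1.03 ± 0.25, and 0.75 without the array that stood apart, adjusted p = 0.0441). Within the 2 scan batches of the first VDH15 experiment the difference was 2.15 and 2.48, in deposited values that carried no batch difference, so this is no separate support. In shCD36 tumours the palmitate difference of Trim30a was 0.04 ± 0.14 and -0.10 ± 0.25, neither called.

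Within single experiments the effects of palmitate went both ways. There were 7 members that rose and 8 that fell in the SCC25 experiment (9.94% and 9.2% of all genes), in the second VDH15 experiment 3 rose and 4 fell (7.06% and 7.34%), near the shares of all genes, and in the first VDH15 experiment 16 rose and 5 fell (19.8% and 26.5%). The second VDH15 count became 1 higher and 8 lower without its array 1 of the palmitate group, and 0 higher and 1 lower without control array 1, with 3 and 4 calls in all without control arrays 2 and 3. The first VDH15 count became 10 higher and 6 lower without the 2 palmitate arrays that stood apart. Markers of other cell types moved with palmitate in these tumours too. In the first VDH15 experiment all 8 endothelial, 7 of 8 fibroblast and 7 of 8 macrophage markers tested rose and 6 of 8 keratinocyte markers fell. The macrophage level lay between 6.53 and 6.92 log2 on palmitate arrays, against 5.57 to 5.90 on control arrays, the endothelial level between 9.49 and 10.26 on palmitate arrays, against 8.26 to 8.90 on control arrays, and the keratinocyte level between 8.68 and 9.58 on palmitate arrays, against 9.96 to 10.11 on control arrays. In the SCC25 experiment 8 endothelial, 8 fibroblast and 3 macrophage markers rose and 2 keratinocyte markers fell, and in the second VDH15 experiment 6, 5 and 2 rose and 3 fell. Their part in the changes of the members was not tested. Ifit2, Ifit3 and Rsad2 rose in the SCC25 experiment (1.67 ± 0.16, 0.98 ± 0.16 and 1.20 ± 0.18) and in the first VDH15 experiment (1.56 ± 0.20, 0.75 ± 0.14 and 0.56 ± 0.09). Without the arrays that stood apart the values in the first VDH15 experiment were 1.42, 0.62 and 0.47, all called. Their values in the second VDH15 experiment were 0.14 ± 0.17, 0.18 ± 0.15 and 0.22 ± 0.12 and did not pass. Irf7 read 9.69, 9.996, 9.13 and 9.37 on palmitate and 8.56, 8.83, 8.55 and 8.34 on control diet in the first VDH15 experiment (0.98 ± 0.16), with no overlap. Without the arrays that stood apart, which were its highest, the difference of Irf7 was 0.68 ± 0.11 (adjusted p = 0.000933). In the same tumours Oasl2 fell on palmitate (-0.59 ± 0.08 in the SCC25 and -0.49 ± 0.05 in the first VDH15 experiment), as did Ifit1 (-0.30 ± 0.09 and -0.31 ± 0.08), with -0.48 and -0.25 in the first VDH15 experiment without the arrays that stood apart, both called. In shCD36 tumours palmitate called 4 members lower and 0 higher in the SCC25 experiment (1.57% and 4.8%), namely Usp18, Oasl2, Parp12 and Rtp4, and 1 lower and 0 higher, Ifit2, in the second VDH15 experiment (0.944% and 0.32%). The Ifit2 call was lost without any 1 of shCD36 control arrays 1 and 2 and shCD36 palmitate arrays 1 and 2. On group averages limma called 0 members and 0% of all genes, with 0 members at an unadjusted p under 0.05.

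Oleate over control diet, present in the first VDH15 experiment alone, called 5 members lower and 0 higher, at 0.71% and 0.522% of all genes. These were Ifih1 (-0.68 ± 0.07), Isg20 (-0.58 ± 0.06), Ifit1 (-0.42 ± 0.08), Stat2 (-0.32 ± 0.05) and Oasl2 (-0.30 ± 0.05). Ifih1 read 9.40, 9.53, 9.53 and 9.495 on oleate arrays, against 10.33, 10.15, 10.13 and 10.05 on control arrays, and 9.57, 9.70, 9.83 and 9.79 on palmitate arrays. It was thus lower on both fat diets than on control diet in that experiment. Between 2 and 5 members were called when 1 array was left out, 2 without oleate array 1 or 2 and 3 without oleate array 3 or control array 1 or 4. Palmitate over oleate called 22 members higher and 2 lower, at 17.1% and 22% of all genes, and 11 higher and 2 lower without the 2 palmitate arrays that stood apart.

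**Figure D5:**
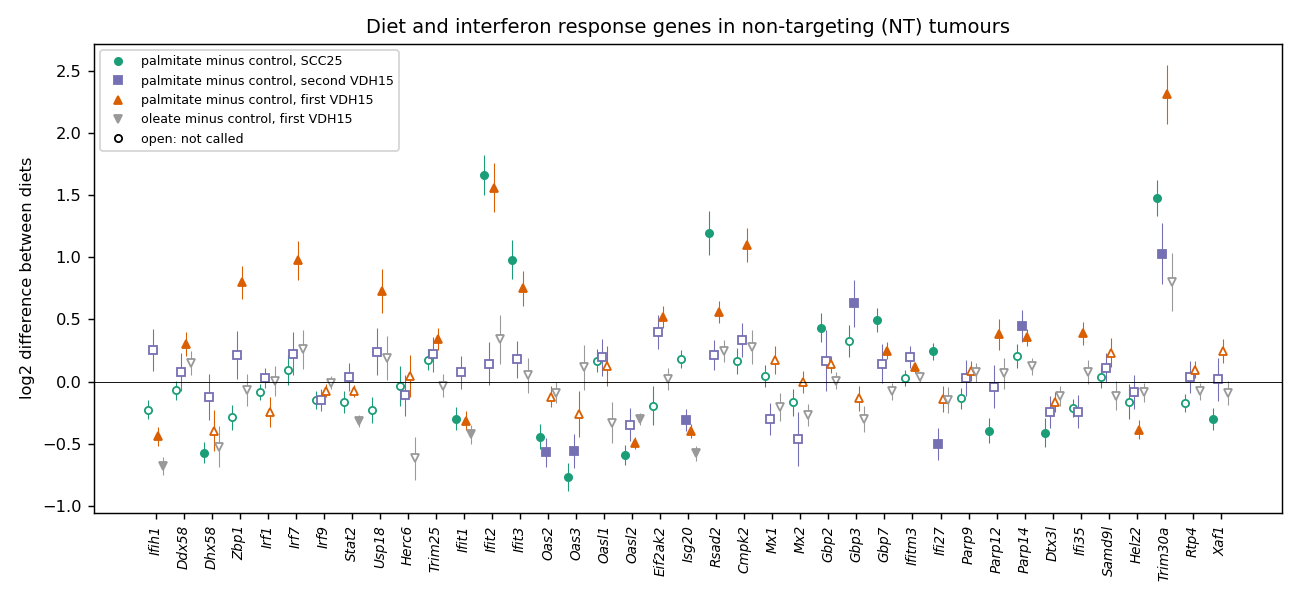
Differences between diets in non-targeting tumours for the 39 members (log2, y axis; bars are the standard error over arrays). Circles, squares and triangles show palmitate minus control diet in the SCC25, second VDH15 and first VDH15 experiments, and inverted grey triangles oleate minus control diet; filled points had an adjusted p under 0.05. Trim30a is filled in all 3 palmitate comparisons, and members lie on both sides of 0.

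Markers of other cell types moved with the shCD36 comparisons. On palmitate endothelial and fibroblast markers were lower in shCD36 tumours of both experiments, as the members were, and on control diet in the SCC25 experiment they were higher. The mean level of the 8 endothelial markers lay between 9.01 and 9.31 log2 on SCC25 shCD36 palmitate arrays, against 10.05 to 10.10 on non-targeting palmitate arrays, and all 8 fell. On control diet it lay between 8.77 and 8.96 in shCD36, against 7.80 to 8.03 in NT tumours, and all 8 rose, where 26 members fell. The mean level of the 10 fibroblast markers lay between 8.29 and 9.004 in shCD36 and between 10.07 and 10.29 in NT tumours on palmitate, and between 9.16 and 9.45 in shCD36 and between 8.09 and 8.37 in NT tumours on control diet, and all 8 that were tested fell on palmitate and 5 of them rose on control diet. In the second VDH15 experiment 7 of 8 endothelial markers fell on palmitate and 0 were called on control diet, with 3 of 8 tested fibroblast markers lower on palmitate and 1 higher on control diet. The endothelial level there lay between 8.35 and 8.44 in shCD36 and between 9.57 and 10.31 in NT tumours on palmitate, and the fibroblast level between 8.56 and 9.12 in shCD36 and between 9.27 and 10.08 in NT tumours. Of 8 tested macrophage markers 2 fell on palmitate in each experiment and 0 were called on control diet, with medians between -0.06 and 0.05. Their mean level lay between 6.27 and 6.39 in shCD36 and between 6.44 and 6.47 in NT tumours on palmitate in the SCC25 experiment, and Adgre1 and Itgam lay under the filter. Of a list of 8 plasmacytoid and other dendritic cell markers 4 were tested, and 1 fell on palmitate in the SCC25 and 2 in the second VDH15 experiment. Keratinocyte and neutrophil levels went the other way on palmitate. The keratinocyte level lay between 9.68 and 9.74 in shCD36 and between 9.40 and 9.56 in NT tumours of the SCC25 experiment. In the second VDH15 experiment it lay between 9.70 and 9.85 in shCD36 and between 9.14 and 9.52 in NT tumours. The neutrophil level lay between 5.73 and 5.89 in shCD36 and between 5.64 and 5.72 in NT tumours of the SCC25 experiment. The second VDH15 arrays gave 5.98 to 6.20 in shCD36 and 5.47 to 5.81 in NT tumours. Krt10 (2.02), Epcam (0.48), Trp63 (0.29), S100a8 (2.30) and S100a9 (1.24) rose there, and the other tested markers of these lists were not called. The neutrophil markers Csf3r (-0.12), Mpo (-0.16) and Camp (0.01) thus did not rise with S100a8 and S100a9 there. Of the 5 tested Schwann cell markers Erbb3 rose (0.54 ± 0.11) and Ngfr fell (-0.42 ± 0.14) on palmitate in the second VDH15 experiment. Sox10, Mbp and Pmp22 were not called there, and none of the 5 was called on control diet in either experiment. On palmitate in the SCC25 experiment the Schwann cell level lay between 6.61 and 6.69 in shCD36 and between 6.64 and 6.71 in NT tumours. The part of all these cells in the results was not tested.

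Across the 8 group averages of both experiments with shCD36, centred per experiment, the members moved together. The median correlation over their 741 pairs was 0.72 and 91.6% of pairs were positive, against a median of 0.01 over all genes. This is a description, since all pairs share the same 8 averages. Rtp4 and Ddx58 were most like the rest (median r = 0.85 each), and Samd9l, Parp9 and Ifit1 followed at 0.85, 0.84 and 0.84. Ifi27 ran against the others at -0.74, and Mx1 (0.26), Oas2 (0.42) and Irf1 (0.52) were the least alike. For 13 members the array carries other probe sets, 16 in all, and 59 of their 64 differences between shCD36 and non-targeting tumours had the sign of the probe set used.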

How the data were processed

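Mouse gene expression was measured on 36 Affymetrix arrays in 11 groups. The authors deposited log2 intensities, for which the submitters' processing notes name RMA and affy. Scan-batch coefficients were under 1e-06 log2 in 100% of the 45141 probe sets when the model held diet and hairpin, and in 0.00222% when it did not; the sources used here do not describe this step. Probe sets of 1 annotated gene were kept, the brightest per gene (17098 genes), and the 25% with the lowest mean (under 5.19 log2) were left out. The limma package (3.58.1, R 4.3.3) fitted single arrays of each experiment, and group averages with the experiment as a term (3 residual degrees of freedom, or 4 for diet), with Benjamini-Hochberg adjustment over 12823 genes. Fits were tested on simulated data. Array numbers did not pair samples (median correlations 0.03 for the first VDH15 experiment, 0.03 for SCC25, -0.05 for the second VDH15 experiment). Array values are given for the 3 members with the largest called difference in each shCD36 comparison and for Irf7, Stat2, Irf9, Usp18, Ifih1 and Ddx58; from the other lists, for up to 4 genes with the smallest p in each comparison. Ifi27, Oas2, Irf1, Irf3, H2-K1 and H2-D1 were named, and the test between experiments was added, after their values were seen. Members and lists were chosen with earlier results of these data known. Alternatives covered the filter, probe sets, normalization, limma's prior, blocks and left-out arrays.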

Additional observations from a re-analysis of the deposited data

Results flagged for a closer look

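On 117 groups of 4 arrays tested with Dixon's rule, which chance meets in about 1 group in 20, an array stood away from its group in 2. Parp9 read 8.37 log2 on control array 3 of the first VDH15 experiment, where the other arrays read 8.10 to 8.12. Irf9 read 9.66 on palmitate array 3, where the others read 9.75 to 9.76.

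The shCD36 effect differed between the experiments by a test of the difference over arrays, given as second VDH15 minus SCC25 in log2. On palmitate it was negative for Ifit2 (-2.14), Oasl1 (-2.06), Gbp3 (-1.58), Cmpk2 (-1.35), Ifit3 (-0.76) and Ifih1 (-0.63). It was positive for Oas2 (1.15), Parp12 (0.95), Oasl2 (0.85), Usp18 (0.79), Xaf1 (0.79), Dtx3l (0.77), Oas3 (0.77), Rtp4 (0.53), Ifi35 (0.53), Isg20 (0.52) and Irf9 (0.50). On control diet it was negative for Ifit2 (-2.16), Oasl1 (-1.55), Ifit3 (-1.43), Trim30a (-1.22), Cmpk2 (-1.01) and Mx1 (-0.63), and positive for Xaf1 (0.85) and Dtx3l (0.66). Cell line and experiment cannot be told apart.

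Counts of called differences between the diets were mostly near the shares of all genes. The difference of the shCD36 effect, palmitate minus control diet, was called for these members. In the SCC25 experiment it was negative for Trim30a (-1.44), Ifit2 (-1.26), Ifit3 (-1.07), Rsad2 (-0.91), Gbp2 (-0.52) and Isg20 (-0.38), and positive for Oas3 (0.55), Ifit1 (0.51) and Dhx58 (0.44). In the second VDH15 experiment it was negative for Ifit2 (-1.23), Gbp3 (-1.01) and Rsad2 (-0.73), and positive for Oas2 (0.91) and Oas3 (0.73).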

How the results depend on the processing

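Over the alternatives run, 209 counts of called members kept within 1.5 times the reported count, 14 were larger and 31 smaller. Of the medians over members 221 stayed as reported and 33 moved. Of the differences of single members 520 stayed as reported and 22 became weaker. The non-targeting palmitate arrays of the second VDH15 experiment had medians over members of both signs (0.38, -0.18 and -0.03 log2). For shCD36 on group averages, the 4 members called on palmitate became 16 with no replicate block for the experiment, 29 with duplicateCorrelation over arrays, 0 without the arrays that stood apart, and 0 to 0 with either experiment left out, where a lone experiment is assumed to vary like the others. On control diet the 0 became 1 with a trended robust prior, 2 with no replicate block and 14 with duplicateCorrelation. The 0 for the difference between diets became 1 with duplicateCorrelation. For palmitate in non-targeting tumours the 2 became 1 with the mean of all probe sets, 1 with quantile normalization, 1 without the arrays that stood apart, 0 on 6 averages, 10 with duplicateCorrelation and 0 to 0 without an experiment. For palmitate in shCD36 tumours the SCC25 count of 4 became 9 with quantile normalization and 7 with a trended prior, and 3 to 6 with 1 array left out. The second VDH15 count of 1 became 2 with the lowest 50% of genes left out, 2 with a trended prior and 0 to 2 with 1 array left out. In the second VDH15 experiment the difference between diets (5) became 10 without the array that stood apart and 2 to 10 with 1 array left out, and palmitate in non-targeting tumours (7) became 4 with the array number as a replicate block and 1 to 9 with 1 array left out. That block changed the call of 1 named member, Irf7 on palmitate in the second VDH15 experiment (adjusted p = 0.0621). Palmitate over oleate (24) became 13 without the arrays that stood apart. With 1 array left out, the ranges were 5 to 10 for the difference between diets in the SCC25 experiment and 2 to 5 for oleate. The shCD36 counts ranged from 30 to 34 and 26 to 27 in the SCC25 experiment on palmitate and control diet, and from 20 to 29 and 12 to 12 in the second VDH15 experiment. With the mean of all probe sets, the call of Ddx58 on group averages (-0.47, adjusted p = 0.0701) and that of Rtp4 on control diet in the second VDH15 experiment (-0.47, 0.286) were lost. Without the array that stood apart the difference between experiments on control diet called 15 members in place of 8. The cause of these changes was not tested. The number of arrays and of experiments limits the precision.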

Other observations

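The interferon-induced genes Iigp1 and Slfn5, which are outside the set, were picked after their values were seen. Iigp1, an immunity-related GTPase, differed between shCD36 and non-targeting tumours by -1.39 log2 on palmitate in the SCC25 experiment and by 0.63 on control diet, both called, and by -1.49 (called) and -0.24 in the second VDH15 experiment. Slfn5, a Schlafen family protein, had -1.46 and 0.61, both called, in the SCC25 experiment and -1.62 (called) and -0.61 in the second VDH15 experiment. Both genes thus fell on palmitate in both experiments and rose on control diet in the SCC25 experiment. In the SCC25 experiment all 8 endothelial and all 8 tested fibroblast markers also fell on palmitate, and 8 and 5 of them rose on control diet, with medians of -0.91 and -2.21 log2 on palmitate and of 1.05 and 0.88 on control diet, and their part in these values was not tested. Ube2l6, the conjugating enzyme for ISG15, fell by 2.51 log2 on palmitate in the SCC25 experiment and had 0.25 on control diet there, and -0.36 and -0.05 in the second VDH15 experiment, none of these 3 called.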
